A study of Mus musculus with 3 samples.

Results

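The 36 genes described here encode enzymes of fatty acid oxidation, or targets of PPARA, and were taken by symbol from a list. All 36 were found among the 32285 features of the files. They comprise 17 mitochondrial genes, 9 peroxisomal genes, 1 ketogenic gene, 6 acyl-CoA thioesterase genes and 3 other PPARA target genes. They were measured by single-nucleus RNA sequencing of liver, in 3 libraries, 1 for each group of male C57BL/6N mice that entered the study at 8 weeks of age. SD mice ate a standard diet. MASLD mice ate a diet for 18 weeks that models metabolic dysfunction-associated steatotic liver disease, and drank water with glucose and fructose. Aza-TdC mice had that diet and drink too, and from week 14 to week 18 were gavaged daily with 2 mg per kg of 5-aza-4′-thio-2′-deoxycytidine, a nucleoside analogue that inhibits DNA methylation. MASLD against SD thus compares diets, and Aza-TdC against MASLD compares drug and no drug on the MASLD diet. Both comparisons use the same MASLD library. How many animals stand behind each library is not given. With 1 library per group no test between groups was possible, so no difference below has a replicate check.

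Fatty acids are activated to acyl-CoA and enter mitochondria through the carnitine shuttle, where repeated rounds of dehydrogenation, hydration, dehydrogenation and thiolysis release acetyl-CoA. Peroxisomes shorten very long and branched chains by a parallel set of enzymes, and thioesterases free fatty acids from CoA again. PPARA is the nuclear receptor that, bound by fatty acids and paired with RXR, activates many of these genes in hepatocytes, above all in fasting. It binds direct repeats of the motif AGGTCA with 1 base between them.

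The libraries held 6928 to 7598 barcodes and 43569644 to 51789068 unique molecular identifiers (UMIs). Of the nuclei that passed the filters, 6858 of 7139 in SD, 6106 of 6726 in MASLD and 6900 of 7591 in Aza-TdC were hepatocyte-like, with median depths of 5946.5, 6336.5 and 6699 UMIs. The class was built from clusters and takes those that no other cell type's marker list named. The 18 hepatocyte markers, such as albumin, were all detected and summed to 23958, 21486 and 25099 counts per 1000000 UMIs (CPM) in SD, MASLD and Aza-TdC. Clusters 13 and 14, which held most MASLD nuclei, each had 1 marker of another class among their 10 leading genes, Spp1 and Themis, and no hepatocyte marker. The comparisons are therefore also given by cluster number. Without clusters 13 and 14, the same 10 genes as below were higher in MASLD, joined by Bdh1 and Etfb. That left 1354 of 6106 MASLD nuclei, of which 936 were in cluster 15, led by hemoglobin, urinary protein and mitochondrial genes. MASLD stood apart in signs of RNA quality and blood: median mitochondrial UMIs per hepatocyte-like nucleus were 0.124%, 0.190% and 0.0824% in SD, MASLD and Aza-TdC. The 5 red blood cell genes summed to 38.3, 367 and 60.3 CPM in the same order. Of 14 genes on RNA quality, 8 were higher in MASLD than in SD and 10 were lower in Aza-TdC than in MASLD, where 13% and 4.87% of all genes were. Malat1 and Neat1, of the same 14, leaned the other way in both comparisons. Malat1 had 51495.5, 30928 and 41829 CPM and Neat1 3857, 1940 and 2074 CPM in SD, MASLD and Aza-TdC. The 12 macrophage markers summed to 8.44, 26.9 and 26.8 CPM in hepatocyte-like nuclei, and all 12 were above 0. With the drug 4 of the 12 were higher and 3 lower, Clec4f standing at 4.07 CPM in MASLD and 8.46 in Aza-TdC and Lyz2 at 8.66 and 1.51. Cholangiocyte markers were higher in MASLD for 3 of 4 measured, and stellate markers for 5 of 9, with 2 lower. The T and NK markers summed to 769.9 CPM in SD, against 1358 in MASLD and 621 with the drug, nearly all of it Tox. The part of these in the ratios below was not tested. Values are also given for nuclei matched for mitochondrial share, where the match is an upper limit of 0.0824% alone. That limit does not address blood RNA or markers of other cell types. Between 9 and 15 barcodes were shared by each pair of libraries.

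Levels are CPM, the UMIs of a gene summed over the hepatocyte-like nuclei of a library and scaled to a total of 1000000 UMIs of that class. Every ratio is on the log2 scale between 2 CPM values, and the range in parentheses is its exact 95% interval (binomial, conditional on both counts), which covers counting error only. A gene was counted as higher or lower where its log2 ratio was at least 1 in size, the interval excluded 0 and both libraries together held at least 20 UMIs. All 36 genes passed that minimum in both comparisons.

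The bases before the start sites are shown for 4 thioesterase genes side by side on chromosome 12 and for Ehhadh and Pdk4. These 6 genes were all counted as higher in MASLD relative to SD, and other genes so counted are not shown. CpG dinucleotides, the sites of the methylation that Aza-TdC inhibits, are in capitals. Each run is the 250 bases before the RefSeq start site, 5′ to 3′ on the strand of the gene, from build GRCm38.p6. Positions are chr12:83987611-83987860 (plus strand) for Acot2, chr12:84009252-84009501 (plus) for Acot1, chr12:84038129-84038378 (plus) for Acot4 and chr12:84051894-84052143 (plus) for Acot3. Ehhadh lies at chr16:21787835-21788084 (minus) and Pdk4 at chr6:5496279-5496528 (minus).
Acot2: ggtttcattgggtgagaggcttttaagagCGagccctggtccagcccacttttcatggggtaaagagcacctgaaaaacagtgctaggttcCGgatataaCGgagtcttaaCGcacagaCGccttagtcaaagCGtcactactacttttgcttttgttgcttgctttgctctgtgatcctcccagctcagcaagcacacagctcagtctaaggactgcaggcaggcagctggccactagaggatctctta
Acot1: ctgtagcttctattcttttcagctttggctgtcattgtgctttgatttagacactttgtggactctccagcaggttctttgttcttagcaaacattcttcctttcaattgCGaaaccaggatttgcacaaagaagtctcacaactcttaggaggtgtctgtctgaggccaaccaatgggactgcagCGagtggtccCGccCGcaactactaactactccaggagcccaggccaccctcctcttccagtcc
Acot4: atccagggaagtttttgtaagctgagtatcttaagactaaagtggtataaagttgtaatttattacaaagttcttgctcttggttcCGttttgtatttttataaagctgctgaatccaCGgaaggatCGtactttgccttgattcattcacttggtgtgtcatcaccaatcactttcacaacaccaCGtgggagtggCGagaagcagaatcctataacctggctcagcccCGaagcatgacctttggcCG
Acot3: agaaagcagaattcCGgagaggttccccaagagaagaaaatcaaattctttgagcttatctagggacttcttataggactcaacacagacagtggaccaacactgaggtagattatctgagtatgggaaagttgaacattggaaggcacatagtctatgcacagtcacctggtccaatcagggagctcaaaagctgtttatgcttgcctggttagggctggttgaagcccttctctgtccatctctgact
Ehhadh: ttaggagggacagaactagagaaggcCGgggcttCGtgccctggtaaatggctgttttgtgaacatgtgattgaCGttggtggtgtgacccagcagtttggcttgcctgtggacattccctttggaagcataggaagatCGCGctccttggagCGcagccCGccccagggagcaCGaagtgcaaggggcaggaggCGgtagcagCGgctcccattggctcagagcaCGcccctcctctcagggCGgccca
Pdk4: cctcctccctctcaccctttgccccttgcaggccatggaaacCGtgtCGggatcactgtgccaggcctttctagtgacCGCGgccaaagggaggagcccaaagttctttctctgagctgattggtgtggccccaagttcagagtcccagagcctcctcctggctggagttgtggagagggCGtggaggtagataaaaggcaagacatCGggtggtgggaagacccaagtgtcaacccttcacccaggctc

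These windows held 6 CpG (Acot2), 4 (Acot1), 7 (Acot4), 1 (Acot3, the first of its 2 start sites), 12 (Ehhadh) and 6 (Pdk4). No methylation was measured here. RefSeq windows were found for 31 of the 36 genes, 35 windows in all. Hsd17b4, Acaa2, Vnn1, Crat and Decr1 had none in the table. The 35 windows held a median of 9 CpG, against 6 over all 32841 windows of the same length. Their CpG number ranged from 1 to 25, the highest being Acadl, a long-chain acyl-CoA dehydrogenase, and Crot, a peroxisomal carnitine transferase. Neither Acadl nor Crot was counted as higher or lower in either comparison. Windows with AGGTCA on either strand numbered 6, or 17.1%, against 14.0% of all windows. A direct repeat of AGGTCA with 1 free base between, on either strand and with at most 2 of 12 bases mismatched, was in 4 windows, or 11.4%, against 3.24% of all windows. A repeat can contain the single motif, so the counts overlap. The 4 repeats are shown with matching bases in capitals and with the mismatches and the free base in lower case, on the strand of the gene.
Acot12: TGACCTcTcACCT
Acot4: TGACCTtTGgCCg
Creb3l3: AGGggAgAGGTCA
Etfa: TtACCTtTGcCCT

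They lie at chr13:91741411-91741423 (Acot12, plus strand), chr12:84038366-84038378 (Acot4, plus), chr10:81092788-81092800 (Creb3l3, minus) and chr9:55512308-55512320 (Etfa, minus). The repeat of Acot12 had 1 mismatch and the others 2. Creb3l3 has 2 RefSeq start sites, and its repeat lies in the window inside the annotated gene (chr10:81084324-81098874). Its other window, chr10:81098873-81099122 at the annotated 5′ end, had no such repeat. Of these 4 genes, Acot4 alone was counted as higher in MASLD. A match is letters in a short window and not a measured binding site. Hadha and Hadhb, both subunits of the trifunctional protein, point away from each other on chromosome 5, and their windows share 228 bases (chr5:30155003-30155230).

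In MASLD relative to SD, 10 of the 36 genes were higher and 0 lower, or 27.8%, where 13% of 15775 genes measured were higher and 4.86% lower. The 10 were Pdk4, Acot2, Vnn1, Acot1, Ehhadh, Acot3, Acaa1b, Pex11a, Crat and Acot4. With a size of at least 0.5 in place of 1, 25 genes were higher and 1 lower, where 26.5% and 11.3% of all genes were. Ratios were above 0 for 32 of 36 genes, and for 9586 of all 15775 genes measured. The median was 0.65 for the 36 genes, against 0.15 over all genes. The 36 genes together took 6595 CPM in SD, against 11362 CPM in MASLD and 10730.4 CPM with Aza-TdC.

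In Aza-TdC relative to MASLD, 0 of the 36 genes were higher and 1, Vnn1, was lower, where 2.78% of 15950 genes measured were higher and 4.87% lower. Ratios were below 0 for 30 of 36 genes, among them all 17 mitochondrial genes (Acads and Acadvl turn above 0 in nuclei matched for mitochondrial share and Cpt2 in cluster 11 alone), with a median of -0.28 against -0.09 over all genes. With a size of at least 0.5, 1 gene was higher and 9 were lower, where 7.11% and 14.0% of all genes were. The 6 genes above 0 were Acot3, Acox2, Creb3l3, Bdh1, Acaa1b and Acot4, and 6320 of all 15950 genes measured were above 0. Of the 10 genes higher in MASLD, 9 were thus counted neither higher nor lower with the drug. The plot of levels shows both comparisons at once, with all libraries on 1 axis.

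**Figure D1:**
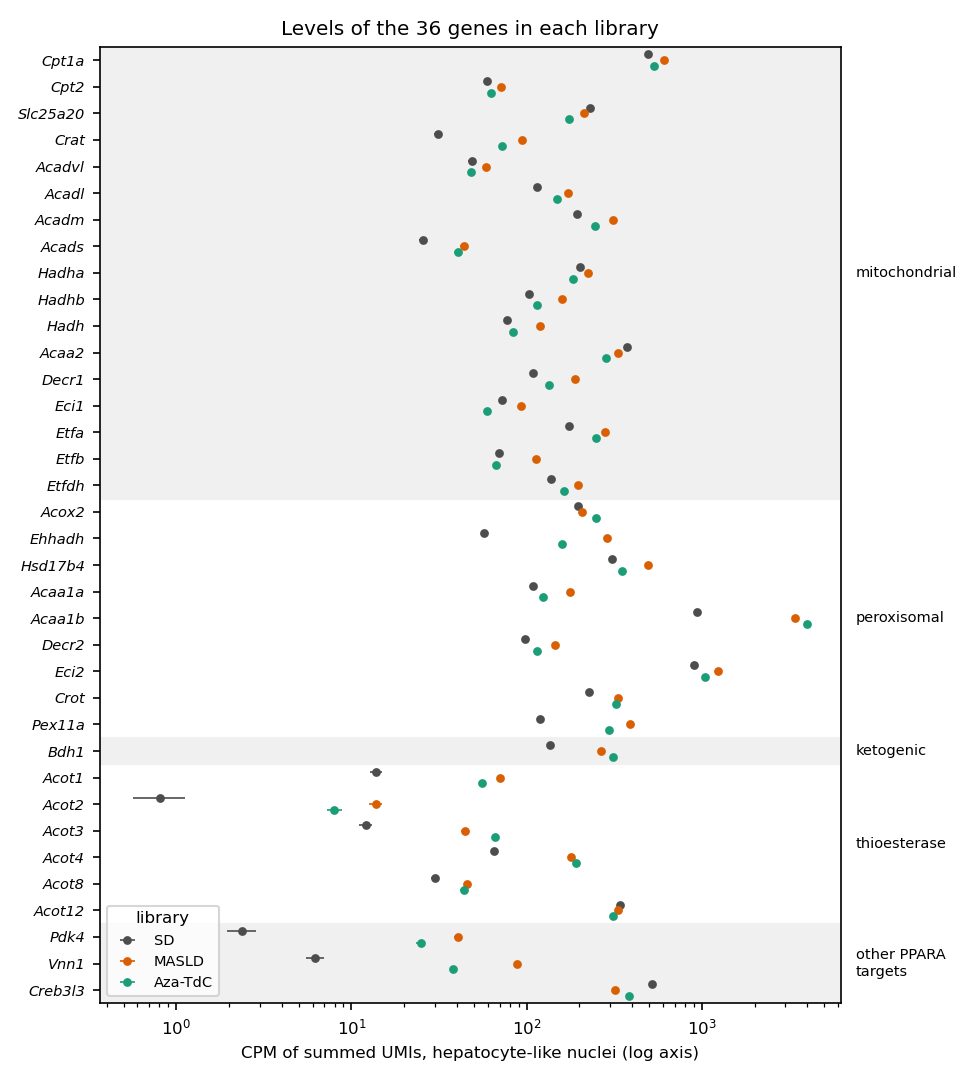
CPM of each of the 36 genes in hepatocyte-like nuclei (log axis), 1 point per library with its exact Poisson 95% interval, grouped by compartment. SD points lie far to the left for Pdk4, Vnn1 and Acot2, and the Aza-TdC points of all 17 mitochondrial genes lie to the left of the MASLD points.

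**Figure D2:**
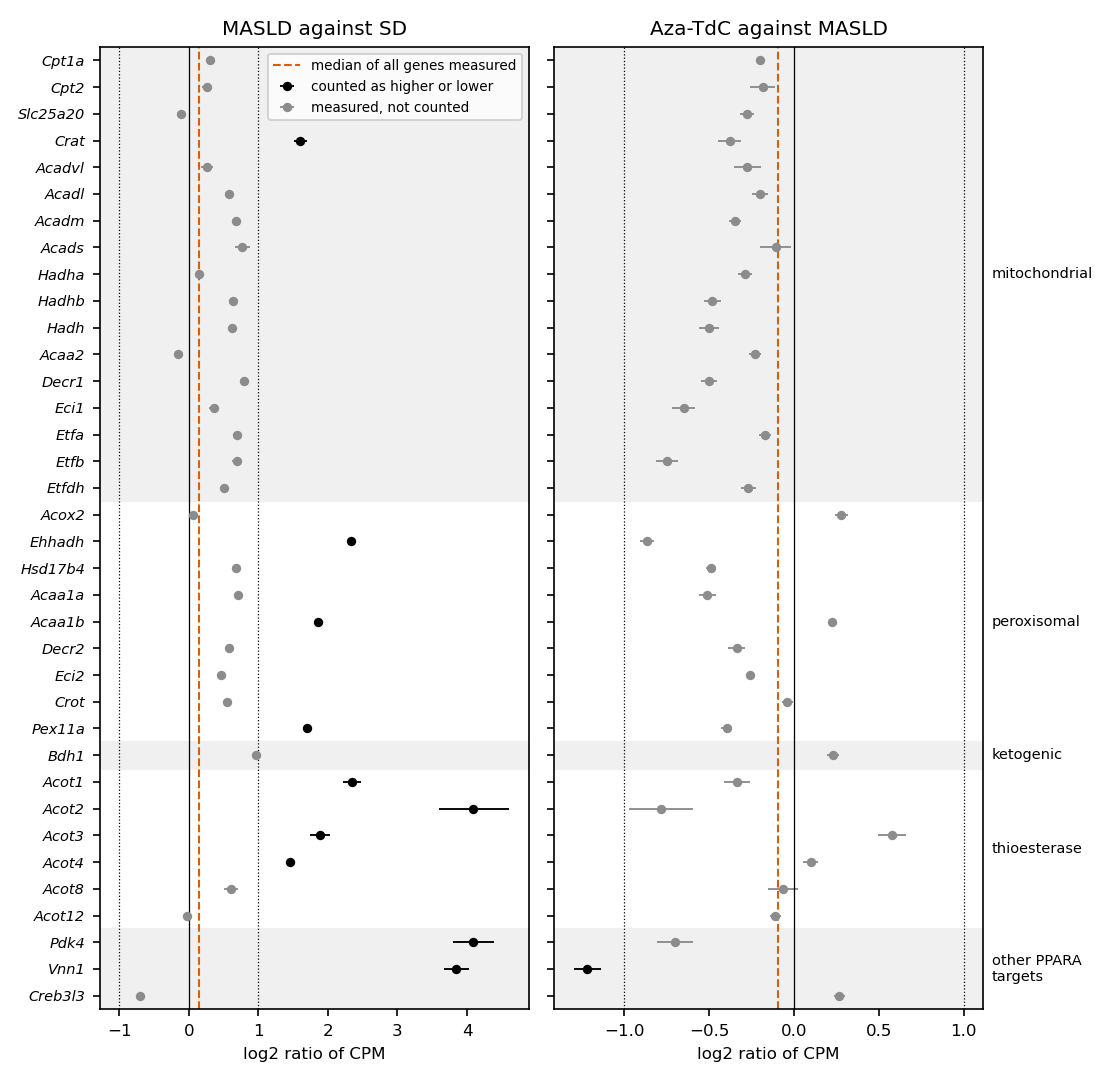
Log2 ratios of CPM (x axis) with 95% intervals for MASLD against SD (left) and Aza-TdC against MASLD (right), whose axes differ in range. Dotted lines mark a size of 1, the dashed line the median of all genes measured, and black points the genes counted as higher (10 on the left) or lower (Vnn1 on the right).

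The carnitine shuttle has 4 genes in the list, of which Crat was higher in MASLD. Crat encodes carnitine acetyltransferase, which moves acetyl groups between CoA and carnitine. Its level was 31.0 CPM in SD, against 94.3 in MASLD and 72.5 with Aza-TdC. The log2 ratio was 1.60 (1.52 to 1.69) for MASLD against SD and -0.38 (-0.45 to -0.31) for Aza-TdC against MASLD. Cpt1a, the malonyl-CoA-sensitive transferase that sets the rate of entry, stood much closer together at 494, 608 and 529.9 CPM. Its ratios were 0.30 (0.27 to 0.33) and -0.20 (-0.22 to -0.17). Cpt2, the transferase of the inner membrane, had 59.5, 71.4 and 62.8 CPM. Slc25a20, the carnitine-acylcarnitine translocase, was the 1 shuttle gene with its lowest level under the drug and its highest in SD: 229, 212 and 175 CPM in the order SD, MASLD, Aza-TdC.

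None of the 10 genes of the mitochondrial oxidation spiral was counted as higher or lower in either comparison. Of all genes measured, 13% were higher and 4.86% lower in MASLD, and 2.78% and 4.87% with the drug. Their log2 ratios for MASLD against SD ran from -0.16 for Acaa2 to 0.79 for Decr1, with a median of 0.60. The acyl-CoA dehydrogenases, each acting on its own range of chain lengths, had 114, 171 and 149 CPM (Acadl, long chains) in SD, MASLD and Aza-TdC. Acadm, which acts on medium chains, had 195, 313 and 246 CPM. Acads, which acts on short chains, had 25.6, 43.6 and 40.4 CPM, and Acadvl, which acts on very long chains, 48.5, 58.3 and 48.2 CPM. MASLD was thus the highest of the libraries for all 4 dehydrogenases, by ratios of 0.27 (Acadvl) to 0.77 (Acads) over SD.

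The subunits of the trifunctional protein differed although their genes share a start region. Hadha, the alpha subunit, had 201, 223 and 183 CPM, a log2 ratio of 0.15 (0.10 to 0.19) for MASLD against SD that is -0.00 when all genes are centred on their median. Hadhb, the beta subunit with the thiolase, had 103, 159 and 114 CPM, a ratio of 0.63 (0.58 to 0.69). These intervals do not overlap, and they cover counting error only. With the drug the ratios were -0.29 (-0.33 to -0.25) and -0.48 (-0.53 to -0.43). Hadh, the dehydrogenase for short and medium chains, had 77.0, 119 and 83.8 CPM. Acaa2, the mitochondrial thiolase, had 372, 334 and 285 CPM and so was highest in SD.

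Unsaturated fatty acids need auxiliary enzymes, here the reductase Decr1 and the isomerase Eci1. Decr1 had 109, 189 and 133 CPM in SD, MASLD and Aza-TdC. Eci1 had 72.2, 92.7 and 59.1 CPM, so that its Aza-TdC level was under that of SD. Its ratio for Aza-TdC against MASLD was -0.65 (-0.72 to -0.58). Electrons from the dehydrogenases pass to the electron transfer flavoprotein, made of Etfa and Etfb, and on to its oxidoreductase Etfdh. Etfb had 69.9, 113 and 67.0 CPM, and at -0.75 (-0.82 to -0.69) it had the lowest drug ratio of the 17 mitochondrial genes, an order that did not hold in nuclei matched for mitochondrial share (Etfb -0.46, Eci1 -0.80, Crat -0.56, Hadhb -0.54). Its partner Etfa had 173, 279 and 248 CPM with a drug ratio of -0.17 (-0.21 to -0.14). Etfdh had 139, 196 and 163 CPM.

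In nuclei matched for mitochondrial share, with at most 0.0824% mitochondrial UMIs, 1619, 612 and 3450 nuclei remained in SD, MASLD and Aza-TdC. The limit is the Aza-TdC median and does not by itself make the shares below it equal. There the same 10 genes were higher in MASLD than in SD. The ratio of Acadvl then turned to -0.03 for MASLD against SD and to 0.09 for Aza-TdC against MASLD. The drug ratio of Acads turned to 0.18, and that of Etfb was -0.46. The drug ratios of the other mitochondrial genes stayed below 0 there. Vnn1 at -1.40, Pdk4 at -1.21 and Ehhadh at -1.01 were lower with the drug in these nuclei, where 5.50% of all genes were.

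Among the 9 peroxisomal genes 3 were higher in MASLD, Ehhadh, Acaa1b and Pex11a, or 33.3% where 13% of all genes were. All 9 ratios were above 0. Ehhadh, the bifunctional hydratase and dehydrogenase and a classic PPARA target, lies at chr16:21761287-21787807. Its level was 57.1 CPM in SD, against 289 in MASLD and 158 with Aza-TdC, from 2531, 11977 and 7881 UMIs. SD was lowest by far, and the drug library lay between the others. The log2 ratios were 2.34 (2.28 to 2.40) and -0.87 (-0.91 to -0.83), the latter the lowest of the peroxisomal genes. Pex11a, a membrane protein that promotes division of peroxisomes, had 119.8, 389 and 295 CPM. Its ratios were 1.70 (1.65 to 1.74) and -0.40 (-0.43 to -0.36).

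Acaa1a and Acaa1b encode near-identical peroxisomal thiolases and lie apart on chromosome 9. Acaa1b had 941 CPM in SD, against 3414 in MASLD and 3985 with Aza-TdC, so that it was highest with the drug. Its ratios were 1.86 (1.84 to 1.88) and 0.22 (0.21 to 0.23). Acaa1a had 109, 177 and 124 CPM, with ratios of 0.71 (0.65 to 0.76) and -0.51 (-0.56 to -0.46). The paralogs thus had drug ratios of opposite sign. Of the 90-base stretches in the last 500 bases of the longest coding transcript, 26.8% of those of Acaa1a also occur in Acaa1b and 23.1% of those of Acaa1b in Acaa1a. Reads from these could not be told apart, so the split between the paralogs is uncertain.

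The other 5 peroxisomal genes had log2 ratios of 0.06 (Acox2) to 0.68 (Hsd17b4) for MASLD against SD. Hsd17b4, the bifunctional enzyme for branched and very long chains, had 307, 492 and 351 CPM. Acox2, the oxidase of branched chains and bile acid intermediates, had 197, 206 and 249.9 CPM, with ratios of 0.06 (0.02 to 0.11), which is -0.09 when all genes are centred on their median, and 0.28 (0.24 to 0.32). Eci2, an isomerase, had 901, 1240.1 and 1037 CPM. Crot, which makes medium-chain acylcarnitines for export to mitochondria, had 228, 334 and 325 CPM, and Decr2, a reductase, 97.8, 145 and 115 CPM. In Decr2 the MASLD clusters lay above those of both other libraries, as given below.

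The ketogenic gene of the list is Bdh1, which reduces acetoacetate to 3-hydroxybutyrate. It stood at 136 CPM in SD, against 264 in MASLD and 310.4 with Aza-TdC, the highest level being with the drug. Its log2 ratio of 0.96 (0.92 to 1.01) for MASLD against SD lay just under the size of 1, and the drug ratio was 0.23 (0.20 to 0.27).

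Acyl-CoA thioesterases were the compartment with the most genes higher in MASLD, 4 of 6, or 66.7% where 13% of all genes were. In share they were level with the other PPARA targets (2 of 3, median log2 ratio 3.84), and their own median was 1.67. The 4 are neighbours on chromosome 12: Acot2 at 83987861 to 83993873, Acot1 at 84009490 to 84018371, Acot4 at 84038379 to 84048601 and Acot3 at 84052144 to 84060402, all on the plus strand. Acot2, the mitochondrial enzyme, had 0.812 CPM in SD (36 UMIs), 13.7 in MASLD (570 UMIs) and 7.98 in Aza-TdC (397 UMIs). SD was near 0, and its ratio to MASLD rests on few UMIs: 4.08 (3.59 to 4.61), or 16.9-fold. Acot1, its cytosolic counterpart, had 13.8, 70.1 and 55.6 CPM and a ratio of 2.34 (2.22 to 2.47).

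Acot3 and Acot4, the peroxisomal enzymes of the cluster, had ratios above 0 in both comparisons. Acot3 had 12.02, 44.4 and 66.2 CPM, with ratios of 1.89 (1.75 to 2.03) and 0.58 (0.49 to 0.66), the latter the highest drug ratio of the 36 genes. In cluster 11 alone the Acot3 ratio was 0.02, at 62.4 CPM in MASLD and 63.4 CPM in Aza-TdC. Acot4 had 65.2, 179.5 and 192 CPM, with ratios of 1.46 (1.40 to 1.52) and 0.10 (0.06 to 0.14). Acot1 and Acot2 had drug ratios of -0.33 (-0.41 to -0.26) and -0.78 (-0.97 to -0.60), so neighbouring genes had drug ratios of opposite sign. Acot3 and Acot4 both overlap the annotated transcript Gm49366 on the same strand, and their reads could be split with it. In the matched nuclei the drug ratio of Acot4 was -0.01 and that of Acot3 was 0.37. Outside the cluster, Acot8, another peroxisomal thioesterase, had 29.98, 45.7 and 43.7 CPM. Acot12, a cytosolic acetyl-CoA hydrolase, had 339, 334 and 309 CPM with ratios of -0.02 (-0.06 to 0.01) and -0.11 (-0.14 to -0.08).

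Pdk4 and Vnn1 are PPARA targets outside the oxidation pathway itself. Pdk4, a kinase that shuts off pyruvate dehydrogenase and so spares glucose, had 2.37 CPM in SD, against 40.3 in MASLD and 24.8 with Aza-TdC. These rest on 105, 1672 and 1233 UMIs. The ratio for MASLD against SD was 4.09 (3.80 to 4.39), or 17.0-fold, the highest of the 36 genes, though the 4.08 of Acot2 lies within its interval. The SD level behind it cannot be told apart from RNA of other cells. The share of nuclei with a Pdk4 UMI was no higher in SD hepatocyte-like nuclei than in other nuclei, as given below. The drug ratio was -0.70 (-0.81 to -0.59). Vnn1, a pantetheinase that recycles the vitamin part of CoA, had 6.18, 88.5 and 38.1 CPM from 274, 3672 and 1894 UMIs. Its ratios were 3.84 (3.66 to 4.02), or 14.3-fold, and -1.22 (-1.30 to -1.14). Vnn1 was the only gene counted in both comparisons, higher with the diet and lower with the drug.

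Creb3l3, a liver transcription factor that acts with PPARA, had 517 CPM in SD, against 319 in MASLD and 384 with Aza-TdC. Its ratio of -0.70 (-0.73 to -0.66) was the lowest of the 36 genes for MASLD against SD, and the drug ratio was 0.27 (0.23 to 0.30). Ppara itself stood at 1810.2, 2304 and 2513 CPM, with ratios of 0.35 (0.33 to 0.36) and 0.13 (0.11 to 0.14).

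By cluster, the hepatocyte-like nuclei of SD fell into clusters 0, 1, 3 and 4, which held almost no nuclei of the other libraries. MASLD nuclei fell into clusters 11 to 15 and Aza-TdC nuclei into 10 to 13, 15 and 16. Cluster 11 was led by the pericentral genes Glul and Slc1a2, cluster 12 by Aqp8, Angptl8 and Fgf21, and cluster 15 by hemoglobin, urinary protein and mitochondrial genes. Clusters of a library are parts of 1 library and not replicates, and the clusters were made from the same nuclei and counts, so the following is a description. For 25 of 36 genes every MASLD cluster with at least 50 nuclei had a higher CPM than every SD cluster, against 18.3% of all genes. No gene was lower in that way (10.2% of all genes). The 25 include all 10 counted as higher, and also Acadm at 287 to 331 CPM in MASLD clusters against 185 to 214 in SD clusters. Between Aza-TdC and MASLD, 3 genes had clusters that did not overlap, all lower with the drug: Vnn1, Slc25a20 and Decr2, against 1.66% of all genes. Vnn1 ran from 30.7 to 61.2 CPM over Aza-TdC clusters and from 69.0 to 123 CPM over MASLD clusters, and Decr2 from 58.0 to 119.7 and from 135 to 157 CPM. The Aza-TdC ends rest on small clusters, with 10 and 49 UMIs for Vnn1 and 5 and 39 UMIs for Decr2. In the larger Aza-TdC clusters 10 and 16, Vnn1 had 45.6 and 32.0 CPM and Decr2 115 and 116 CPM. None was higher with the drug in that way (1.35% of all genes).

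Single clusters departed from the library values. Pdk4 reached 224 CPM (73 UMIs) in the 66 Aza-TdC nuclei of cluster 13 and 109 CPM (88 UMIs) in the 80 MASLD nuclei of cluster 12, against 14.6 CPM in MASLD cluster 15. In cluster 11, which both diet libraries shared with 300 and 227 nuclei, Pdk4 had 28.2 CPM in MASLD and 48.0 CPM in Aza-TdC. Its drug ratio there was 0.77, opposite in sign to the whole class. In cluster 12 Pdk4 was lower with the drug, as in the whole class, at 109 CPM in the 80 MASLD nuclei and 40.0 CPM (32 UMIs) in the 84 Aza-TdC nuclei. In cluster 13 it had 40.6 CPM in MASLD, under the 224 CPM in Aza-TdC. In cluster 15 it had 14.6 CPM in MASLD and 11.6 CPM (1 UMI) in Aza-TdC. Etfb stood at 306 CPM in MASLD cluster 12 and 191 CPM in Aza-TdC cluster 12, against 98.0 CPM in MASLD cluster 14 and 56.0 CPM in Aza-TdC cluster 11. Acot2 had a drug ratio of -1.72 in cluster 11, from 5 UMIs in Aza-TdC and 19 in MASLD.

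**Figure D3:**
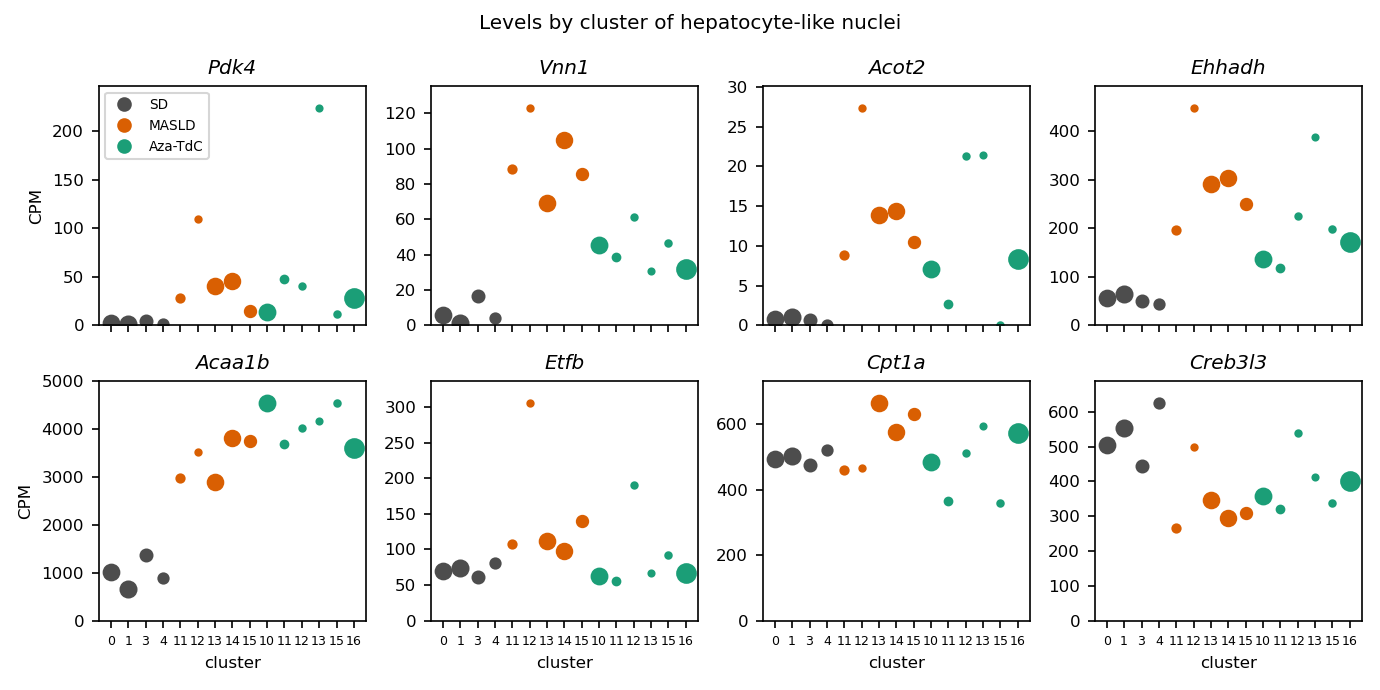
CPM of 8 of the 36 genes by numbered cluster of hepatocyte-like nuclei (x axis), with clusters of under 50 nuclei left out and larger points for larger clusters. The 4 SD clusters lie under all MASLD clusters for Pdk4, Vnn1, Acot2, Ehhadh, Acaa1b and Etfb and overlap them for Cpt1a and Creb3l3.

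Hepatocytes along the path from portal to central vein differ in metabolism. Nuclei of each library were put in 3 equal bins by a score from 11 pericentral and 14 periportal landmark genes, none of them among the 36. A bin is a range of a score and not a cell type, and 1192, 1048 and 1455 nuclei of SD, MASLD and Aza-TdC lay near a border. The score was standardized within each library, so bins of different libraries need not be the same zones. Periportal landmarks had 15509 CPM in the periportal and 10615.5 CPM in the pericentral bin of SD. They had 10934 and 3470 CPM in MASLD and 13201 and 6575 CPM in Aza-TdC. Pericentral landmarks had 340 and 3363, 336 and 4061, and 175 and 4272 CPM in these libraries. Gradients are thus not strictly comparable between libraries. In SD, 8 of 36 genes were at least 0.5 higher on the log2 scale in the pericentral than in the periportal bin, and 0 were higher periportally, where 6.54% and 5.53% of all genes were. In MASLD the counts were 7 and 0 (7.26% and 8.08% of all genes), and in Aza-TdC 3 and 0 (6.29% and 8.93%). The 8 genes in SD were Vnn1, Pdk4, Acot1, Acaa1b, Pex11a, Acaa1a, Eci2 and Bdh1. Pdk4 rests there on 16, 29 and 60 UMIs from the periportal to the pericentral bin. Its SD level cannot be told apart from RNA of other cells, as stated above, and that limit holds for its gradient too.

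Vnn1 had the steepest gradient, with 2.00, 3.51 and 12.5 CPM from the periportal to the pericentral bin in SD. In MASLD it had 66.2, 96.5 and 102 CPM. The log2 ratio of the outer bins was 2.65 (2.08 to 3.27) in SD, against 0.63 (0.51 to 0.75) in MASLD and 0.65 (0.49 to 0.82) with Aza-TdC. Acot1 likewise had 1.44 (1.12 to 1.77), 0.65 (0.52 to 0.79) and 0.39 (0.26 to 0.52), and Acaa1b 0.91 (0.87 to 0.94), 0.36 (0.35 to 0.38) and 0.37 (0.35 to 0.38). Pex11a had values closer together, at 0.86 (0.76 to 0.96), 0.78 (0.72 to 0.84) and 0.73 (0.67 to 0.78). Cpt1a leaned the other way, at -0.07 (-0.11 to -0.02), -0.32 (-0.36 to -0.28) and -0.29 (-0.33 to -0.24).

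Pdk4 was highest in the middle bin of the diet libraries, at 21.2, 53.7 and 45.9 CPM in MASLD and 18.8, 33.3 and 23.0 CPM in Aza-TdC. Within the bins taken alone, 11, 11 and 10 genes were higher in MASLD than in SD from periportal to pericentral, against 11.8%, 12.6% and 10.9% of all genes. With the drug 1, 1 and 3 genes were lower, against 4.02%, 4.83% and 4.56% of all genes.

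**Figure D4:**
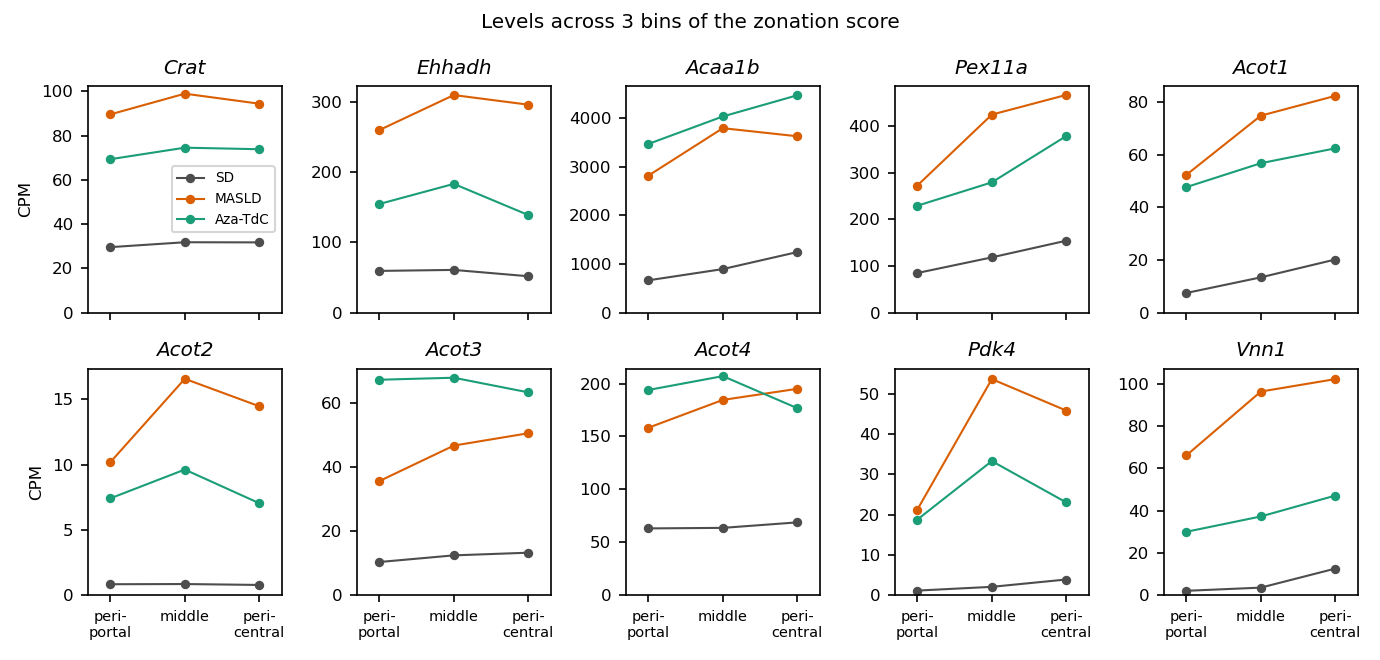
CPM of the 10 genes higher in MASLD, in 3 equal bins of the zonation score (x axis, periportal to pericentral), 1 line per library. SD lies lowest in every panel, and Acaa1b and Acot3 are highest with Aza-TdC in all 3 bins.

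To compare shares of nuclei, each was thinned to 2000 UMIs, which left 6711, 5896 and 6713 hepatocyte-like nuclei. Acaa1b was then seen in 77.5% of SD nuclei, 99.03% of MASLD nuclei and 99.6% of Aza-TdC nuclei (95.3%, 99.8% and 99.7% unthinned). In nuclei of other cell classes, where the gene should be low, the shares were 32.6%, 74.5% and 68.7%. Ehhadh was seen in 9.94%, 32.9% and 23.8% of hepatocyte-like nuclei (26.0%, 60.8% and 51.2% unthinned), and in 7.87%, 16.0% and 9.70% of other nuclei. For Pdk4 the shares were 0.51%, 5.51% and 4.04% (1.37%, 13.6% and 10.4% unthinned), against 2.25%, 2.61% and 2.16% in other nuclei. The SD share of Pdk4 and the MASLD share of Etfb (19.7% against 20.6%) lay under those of other nuclei. So did the Aza-TdC share of Acot2 (1.61% against 1.89%). The 95% intervals overlapped in all 3 cases, for Pdk4 at 0.35% to 0.71% against 0.62% to 5.65%. They were 18.7% to 20.8% against 16.2% to 25.6% for Etfb and 1.32% to 1.94% against 0.76% to 3.85% for Acot2. These 3 shares are thus not read as expression in hepatocyte-like nuclei, and the CPM behind them carries the same limit. Of the 10 genes higher in MASLD, others too had overlapping intervals in SD. They were Ehhadh (9.23% to 10.7% against 4.37% to 12.8%), Crat, Vnn1, Acot1, Acot2 and Acot3. The SD intervals of Acaa1b, Acot4 and Pex11a lay above those of other nuclei.

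Other cell classes also carried these transcripts. The median gene of the 36 stood at 0.415 to 0.780 of its hepatocyte-like level in stellate-like, endothelial-like, T and NK-like, mesothelial-like and macrophage-like nuclei. Hepatocyte markers stood at 0.400 to 0.835 in the same nuclei. In MASLD the 36 genes stood under these markers in T and NK-like nuclei (0.508 against 0.835) and endothelial-like nuclei (0.553 against 0.777). The same held in stellate-like nuclei (0.465 against 0.654), but not in mesothelial-like (0.626 against 0.596) or macrophage-like nuclei (0.456 against 0.400). Pdk4 in SD stood above its hepatocyte-like level, with 36.4 CPM (18.1 to 65.1) in 114 endothelial-like nuclei against 2.37 CPM in hepatocyte-like ones. These are 11 UMIs. In MASLD the values were 38.3 CPM (22.7 to 60.5) and 40.3 CPM. Etfb in MASLD stood above its hepatocyte-like level on more UMIs, with 172 CPM in endothelial-like nuclei (81 UMIs) and in stellate-like nuclei (53 UMIs). Both were 1.53 of that level.

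The wider pathway was followed in a second list of 91 genes, of which 90 were found by symbol and 88 measured. In MASLD relative to SD, 19 were higher, or 21.6% where 13% of all genes were, with a median log2 ratio of 0.35 against 0.15 over all genes. With the drug, 1 was higher and 8 lower, or 1.14% and 9.09% where 2.78% and 4.87% of all genes were. The median drug ratio was -0.13, close to the -0.09 of all genes. The groups of this list are small, and their counts are to be read against the same shares of all genes. Of 9 regulators, 0 were higher in MASLD. Rxra, the partner of PPARA, had a ratio of -0.58 (-0.63 to -0.53). Esrra, a receptor that drives mitochondrial genes, had the highest drug ratio of the regulators at 0.64 (0.57 to 0.71).

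Of 15 further PPARA targets measured, 9 were higher in MASLD, or 60.0% against 13% of all genes. Fgf21, a fasting hormone, had 2.80, 67.4 and 42.8 CPM, and the lipid droplet protein Cidec had 12.3, 216 and 87.8 CPM. Both lay between SD and MASLD with the drug. The fatty acid omega-hydroxylases of the endoplasmic reticulum were highest with the drug: Cyp4a10 had 36.1, 302 and 622 CPM and Cyp4a14 101, 995 and 1946 CPM. Their drug ratios were 1.04 (1.01 to 1.07) and 0.97 (0.95 to 0.98), and Cyp4a10 was the 1 gene of the list counted as higher with the drug. With the drug 4 were lower, or 26.7% against 4.87% of all genes, among them Ucp3, Cidec and the lipase inhibitor G0s2, the last at 244, 925 and 439 CPM.

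Of 10 genes for acyl-CoA synthesis and transport, 4 were higher in MASLD and 2 lower with the drug, where 13% and 4.87% of all genes were. Fabp1, the liver fatty acid binding protein, had 485, 2673 and 931 CPM, and Dbi, the acyl-CoA binding protein, 118, 564 and 241 CPM. Acsl5, an acyl-CoA synthetase, had 80.6, 235 and 312 CPM and so was highest with the drug. Acacb, which makes the malonyl-CoA that inhibits Cpt1a, had 145, 375 and 365 CPM, a ratio of 1.37 (1.33 to 1.41). Of 24 other peroxisomal genes only Abcd2, a fatty acid transporter, was higher in MASLD, at 1.36 (1.24 to 1.49), or 4.17% of the group against 13% of all genes, and 0 were lower or higher with the drug. Catalase (Cat) had 547, 926 and 1243 CPM and Scp2, a sterol carrier with a thiolase form, 988, 1671 and 953 CPM.

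Of 13 other mitochondrial oxidation genes Acad12 alone was higher in MASLD, at 1.62 (1.43 to 1.82), and it alone was lower with the drug, at -1.15 (-1.32 to -0.98). Each count is 7.69% of the group. Of all genes, 13% were higher in MASLD and 4.87% lower with the drug. Of 5 ketone body genes Slc16a1, a monocarboxylate transporter, was higher, at 1.13 (0.94 to 1.33). Of 6 other thioesterases measured Acot6 and Acot13 were higher in MASLD, at 2.53 (1.88 to 3.24) and 1.61 (1.51 to 1.71), or 33.3% of the group. Acot6 was lower with the drug, at -1.03 (-1.46 to -0.60), or 16.7% of the group.

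**Figure D5:**
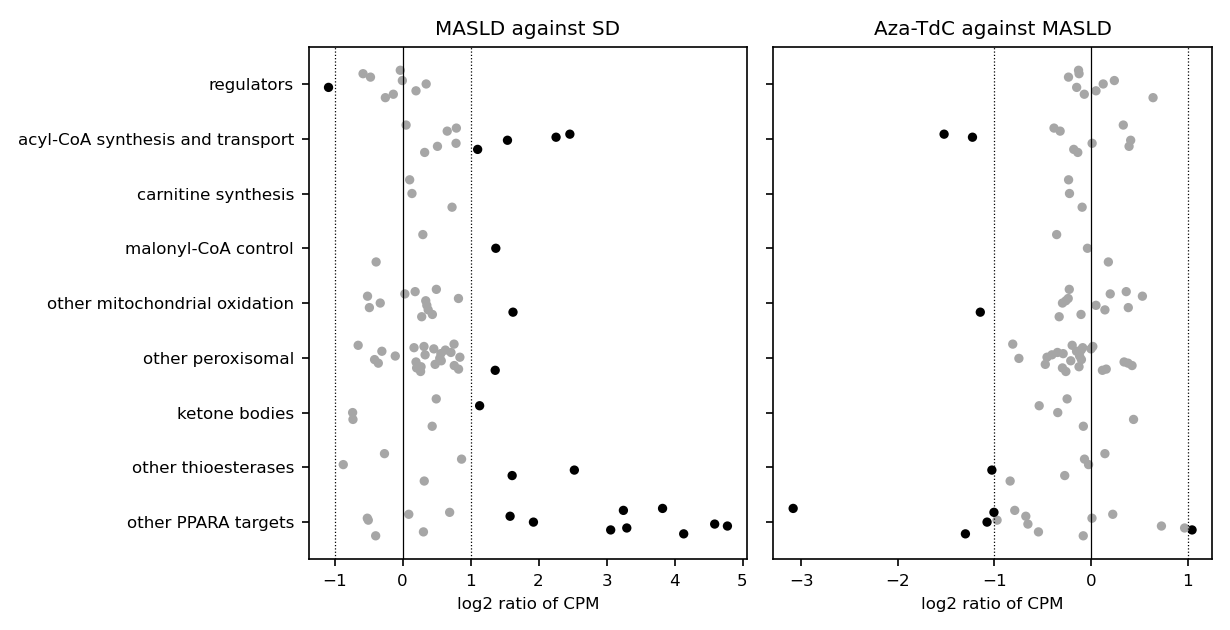
Log2 ratios of CPM (x axis) of the 88 measured genes of the wider pathway by group (rows, points spread vertically for legibility), MASLD against SD on the left and Aza-TdC against MASLD on the right, with different ranges. Black points are the genes counted as higher or lower, among them the 19 higher on the left and the 9 on the right, and dotted lines mark a size of 1.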

How the data were processed

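Nuclei from frozen liver (120 mg), sorted by DAPI, were profiled with 10x 3′ v3 chemistry, per the labels' protocols. The deposited matrices hold raw UMI counts per gene and barcode, and per the file headers the software was Cell Ranger 6.1.2. The submitters' processing notes also name Seurat 4.4.0 and build mm10, with no role. Nuclei under 500 UMIs or 300 genes, or over 5% mitochondrial UMIs, were left out, and the rest clustered (3000 variable genes, 30 principal components, 15 neighbours, Leiden resolution 1, 17 clusters) with scanpy 1.11.5, Python 3.11.15, numpy 2.4.6 and scipy 1.17.1. No doublet caller was run and doublets remain. Counts were summed per library and class, and intervals (95%, binomial or Poisson) cover counting error only. All 36 genes were described by role, and of the wider list at most the 3 highest and 3 lowest ratios of each group by the interval bound nearest 0 were named. The members and lists were chosen with earlier results of these data known. Shares of nuclei used counts thinned to 2000 UMIs. Gene coordinates are from GENCODE M21 on GRCm38. The result for 1 gene of the wider list is not reported here.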

Additional observations from a re-analysis of the deposited data

How the results depend on the processing

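The 10 genes higher in MASLD than in SD were also called in each of the 9 other ways of choosing nuclei that were run, and Vnn1 was lower with Aza-TdC in each of the 10 run. Leaving out cluster 15 and using cluster 11 alone were chosen after seeing the data. Genes lower with the drug numbered 3 in nuclei matched for mitochondrial share (Ehhadh and Pdk4 added), 2 without clusters led by another class (Etfb added) and 2 in cluster 11 alone (Acot2 added). Of all genes, 5.50%, 6.53% and 4.36% were lower in these settings, in the same order. The matching and the leaving out of clusters also change the number of nuclei, and the cause was not tested. Centring all genes on their median, a shift of 0.15 for MASLD against SD and -0.09 for Aza-TdC against MASLD, gave medians over the 36 genes of 0.50 and -0.18. With a log2 ratio of at least 0.5, 25 genes were higher and 1 lower in MASLD, where 26.5% and 11.3% of all genes were. With the drug 1 was higher and 9 were lower at that size, where 7.11% and 14.0% of all genes were. Pdk4 had a drug ratio of 0.77 in cluster 11, while in cluster 12 its level was lower with the drug. Acot4 had -0.01 in matched nuclei and -0.26 in cluster 11, and Acot8 and Crot had 0.03 and 0.05 after centring. No paired analysis was possible because each group has 1 library. Depth limits Acot2 and Pdk4 in SD most, with 36 and 105 UMIs.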
